A study of Mus musculus with 18 samples.

Results

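The brown fat thermogenic effector genes described here are Ucp1, Cidea, Elovl3, Dio2, Cox7a1 and Cox8b. They were taken by their symbols and not by a threshold on measured values, and each symbol matched 1 gene, which gave 6 of the 54347 genes in the count table. The RNA came from wt1-SAM cells, a single immortalised mouse brown preadipocyte line that stably carries the CRISPRa SAM machinery for gene activation, so every library shares that genotype. All were differentiated into adipocytes with an induction cocktail of rosiglitazone, triiodothyronine, dexamethasone, insulin, indomethacin and the phosphodiesterase inhibitor IBMX, and then kept on rosiglitazone, an activator of PPARγ. They were reverse transfected on day 4 with a locked nucleic acid (LNA) antisense oligonucleotide (1.4 µl of a 10 µM stock and 500000 cells per well) and harvested on day 7. LNA1 and LNA2 are directed against the long noncoding RNA Gm15551 and ctrlA is a non-targeting control. For each LNA the cells were either left unstimulated or given 1 µM isoproterenol, a β-adrenergic agonist, for the last 24 h. This makes 6 groups of 3 libraries, with replicates numbered 2, 3 and 4 in every group, and the comparisons address whether knockdown of Gm15551 alters the state of the adipocytes or their response to β-adrenergic stimulation. The labels do not say whether the replicates were separate cultures, and the p-values measure only the spread between these libraries.

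Brown adipocytes burn fat to make heat. Noradrenaline acts through β-adrenergic receptors to raise cyclic AMP, which activates lipolysis and the transcription of a set of thermogenic genes. Ucp1 encodes the mitochondrial uncoupling protein that lets protons bypass ATP synthase. Cidea encodes a lipid droplet protein, Elovl3 a fatty acid elongase of the endoplasmic reticulum, and Dio2 the deiodinase that converts thyroxine into the active thyroid hormone inside the cell. Cox7a1 and Cox8b encode the isoforms of 2 small subunits of cytochrome c oxidase, complex IV of the respiratory chain, that heart, skeletal muscle and brown fat use in place of the common isoforms.

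The 3 oligonucleotides define the groups, so their sequences are shown here 5′ to 3′ as the study listed them, in lower case throughout. The label ctrlA was taken to mean the oligonucleotide that the study lists as Negative control A, which the labels do not state. LNA1 and LNA2 can pair along all 16 bases with the annotated Gm15551 transcript, whereas the best ungapped match of the 15-base control to it has 8 bases. Against the transcripts of the 6 effector genes, the best match of LNA1 had 11 of 16 bases (Elovl3), that of LNA2 had 13 of 16 (Dio2) and that of the control had 10 of 15. These are counts of matching bases only, and binding to these transcripts was not tested.
Negative control A (taken as ctrlA): aacacgtctatacgc
LNA1: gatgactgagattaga
LNA2: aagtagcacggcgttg

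The 18 libraries held 9167560 to 19723021 counts (median 12914313), and 14949 genes passed the filter on low counts and were tested. Levels are given as CPM, the read count of a gene relative to the scaled library total, and a count of 3 in a library corresponds to 0.152 to 0.327 CPM. Gm15551 itself was near the floor: it had 2 to 14 counts in the ctrlA libraries, 1 to 12 with LNA1 and 1 to 13 with LNA2, so the ranges overlapped and its knockdown could not be judged from these counts. The 6 libraries numbered 2 stood apart, with 2.88% to 14.3% of counts from an rRNA gene and 7.86% to 9.79% from mitochondrial genes, against 0.285% to 1.04% and 2.56% to 4.97% in the other 12. The 9 markers of mature adipocytes (among them Fabp4, Lpl and Adipoq) were all expressed, and their summed level was 16720 to 31710 CPM per library. Of the markers of other cells, the white fat markers Lep, Tcf21 and Slc7a10, the muscle regulators Myod1, Myog and Myf5, the macrophage markers Ptprc and Adgre1 and the endothelial markers Tek and Kdr had at most 3 counts in any library. Others in the same lists were expressed, with means of 19.5 CPM for Cd68, 5.89 for Hoxc9, 3.17 for Nnat, 2.67 for Acta1 and 2.56 for Pecam1, and so were the preadipocyte markers Ly6a (23.6 CPM), Pdgfrb (20.1 CPM) and Pdgfra (11.1 CPM). In bulk samples, fewer cells of a type and less RNA per cell cannot be told apart.

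Per kilobase of exon, which allows genes to be compared, the levels of the 6 genes spanned a wide range. Elovl3 was by far the most abundant, at 128.2 ± 29.3 CPM per kb in unstimulated cells (SD, n = 9), a level higher than that of 97.5% of the 14936 genes ranked. Cidea followed at 6.59 ± 1.79, Cox7a1 at 3.83 ± 2.46, Cox8b at 2.26 ± 1.02 and Ucp1 at 0.688 ± 0.211 CPM per kb. In unstimulated cells Ucp1 thus exceeded only 18.4% of the ranked genes, and Dio2 came last at 0.0165 CPM per kb. Of these neighbours, only Elovl3 and Cidea, and Ucp1 and Dio2, had library ranges that did not overlap.

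Under isoproterenol, Ucp1 moved past both cytochrome c oxidase isoforms in this order. The levels were 164.9 ± 29.5 CPM per kb for Elovl3, 15.9 ± 4.29 for Cidea, 7.86 ± 1.38 for Ucp1, 4.17 ± 2.21 for Cox7a1 and 2.42 ± 1.40 for Cox8b (SD, n = 9). Ucp1 then exceeded 62.2% of the ranked genes and Cidea 77.9%, up from 58.4%. Library ranges of neighbours again overlapped except between Elovl3 and Cidea and between Cox8b and Dio2. Elovl3 exceeded Ucp1 by 148.3 to 260.9 times per kb in unstimulated libraries (median 184.9) and by 16.2 to 29.0 times in stimulated ones (median 20.4). In absolute terms the difference between the 2 states was largest for Elovl3, at 36.7 CPM per kb, against 9.31 for Cidea and 7.17 for Ucp1.

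**Figure D1:**
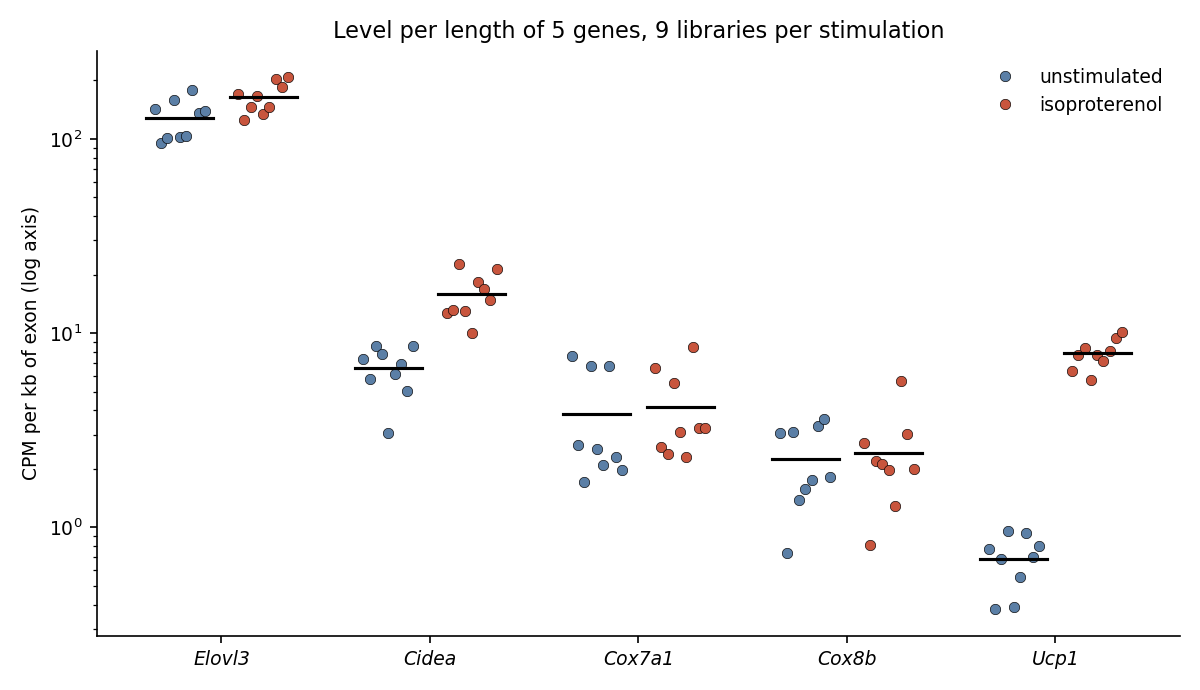
Levels of 5 genes in CPM per kb of exon (log axis) in the 9 unstimulated and 9 isoproterenol libraries; each point is a library and each bar the mean. Elovl3 lies above all others in both states, and Ucp1 moves from a mean of 0.688 to 7.86 CPM per kb; Dio2, which was at 0 in 9 libraries, is left out.

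Isoproterenol raised Ucp1 and Cidea. Averaged over the 3 LNAs, Ucp1 rose 11.4-fold and Cidea 2.42-fold, and these 2 of the 5 tested members passed the test (edgeR, adjusted p under 0.05 and an absolute log2 fold change over 0.5), where 3.2% of all genes were called and 2.02% were called as higher. Elovl3 was higher by 28.3% without passing, Cox7a1 and Cox8b differed little, and Dio2 did not pass the filter on low counts. The median log2 fold change of the 5 tested members was 0.36, against -0.0021 over all genes.

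Ucp1, the uncoupling protein, was close to the floor before stimulation. In unstimulated ctrlA cells it was at 1.53, 1.15 and 1.31 CPM in replicates 2, 3 and 4, and with isoproterenol at 13.2, 15.5 and 16.5 CPM. With LNA1 the values were 1.27, 0.621 and 1.12 CPM unstimulated and 10.5, 12.7 and 13.7 CPM stimulated. With LNA2 they were 1.57, 0.638 and 0.910 CPM unstimulated and 9.40, 12.6 and 11.7 CPM stimulated. The highest of the 9 unstimulated libraries lay well below the lowest stimulated one, so the states did not overlap for any LNA. The averaged change was 3.51 on the log2 scale (SE 0.17, edgeR adjusted p = 1.124e-08), the 11th largest increase and the 2nd smallest p among the genes tested. Within single LNAs the log2 fold change was 3.49 with ctrlA (adjusted p = 2.085e-05), 3.60 with LNA1 (adjusted p = 1.245e-05) and 3.44 with LNA2 (adjusted p = 4.388e-05). Ucp1 was the only member called in each of these 3 comparisons, in which 0.488%, 0.702% and 0.395% of all genes were called. For LNA2 the call was lost when only the 6 LNA2 libraries entered the fit (adjusted p = 0.0808), with a log2 fold change of 3.45.

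The promoter of Ucp1 is shown because this gene changed most, and that of Dio2 because it holds the complete cyclic AMP response element while its RNA was barely detected. Both are the 250 bases before the start site in RefSeq (GRCm38.p6), written on the gene's strand: Ucp1 at chr8:83290098-83290347 on the plus strand and Dio2 at chr12:90739039-90739288 on the minus strand. Capitals mark the matches found among 5 motifs searched on both strands: TGACGTCA (the full cyclic AMP response element), its core TGACG, the nuclear receptor half-site AGGTCA, the TATA box TATAAA and the CCAAT box CCAAT. Ucp1 has TGACG at position -147 and AGGTCA at -14 from the start site. Dio2 has TGACGTCA at -95, which contains TGACG on both strands, and TATAAA at -30. Of 32851 RefSeq windows of 300 bases (the 250 bases and 50 more past the start site), 1.79% hold TGACGTCA, 20.8% TGACG, 16.3% AGGTCA, 13.6% TATAAA and 37.4% CCAAT, and a match is a description of the letters, not evidence of a bound site. The start site of Dio2 in RefSeq lies upstream of the one in the annotation used for its length.
Ucp1: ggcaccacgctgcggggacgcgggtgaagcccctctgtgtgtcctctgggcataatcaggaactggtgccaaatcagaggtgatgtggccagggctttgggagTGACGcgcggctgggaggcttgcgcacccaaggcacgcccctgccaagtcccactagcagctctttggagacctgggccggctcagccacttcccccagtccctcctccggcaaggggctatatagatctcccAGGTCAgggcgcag
Dio2: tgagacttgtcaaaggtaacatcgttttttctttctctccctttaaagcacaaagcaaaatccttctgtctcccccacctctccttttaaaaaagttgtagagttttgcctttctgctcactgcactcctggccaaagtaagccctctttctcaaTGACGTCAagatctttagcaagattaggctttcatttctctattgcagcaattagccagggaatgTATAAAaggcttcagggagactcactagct

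Of the other members, Cox7a1 and Cox8b also have an entry in that table of promoters. The Cox7a1 window has 2 CCAAT boxes on the reverse strand, at -137 and -74, and the Cox8b window has TATAAA only past the start site, at position 5. Cidea and Elovl3 have no entry there.

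Cidea, the lipid droplet protein, started from a higher level and rose less. In ctrlA cells it was at 7.72, 5.63 and 9.54 CPM unstimulated and 18.8, 16.5 and 23.9 CPM stimulated. With LNA1 it was at 8.23, 6.48 and 9.56 CPM unstimulated and 14.1, 14.7 and 25.4 CPM stimulated. With LNA2 it was at 8.67, 3.40 and 6.86 CPM unstimulated and 14.5, 11.2 and 20.5 CPM stimulated. Replicate 4 was the highest stimulated library for every LNA, and no stimulated library reached down to the unstimulated range. The averaged log2 fold change was 1.27 (SE 0.20, adjusted p = 0.0011). Within single LNAs it was 1.37, 1.16 and 1.29 for ctrlA, LNA1 and LNA2 and did not pass (adjusted p = 0.130, 0.209 and 0.206). With the replicate number as a block all 3 passed (adjusted p = 9.801e-05, 5.307e-04 and 3.235e-04), in fits that called 4.03%, 5.04% and 4.25% of all genes.

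Elovl3, the elongase, was already among the most abundant transcripts before stimulation and did not pass the calling rule. In ctrlA cells it was at 351.9, 267.9 and 273.8 CPM unstimulated and 402.8, 366.0 and 409.1 CPM stimulated. With LNA1 it was at 280.3, 188.9 and 200.3 CPM unstimulated and 335.1, 247.6 and 288.9 CPM stimulated. With LNA2 it was at 311.9, 200.9 and 203.2 CPM unstimulated and 328.8, 265.1 and 287.6 CPM stimulated. Replicate 2 was the highest library in 5 of the 6 groups, and stimulated and unstimulated libraries overlapped for LNA1 and LNA2 but not for ctrlA. Each of the 9 stimulated libraries was nevertheless above the unstimulated library of the same LNA and number, by 1.05 to 1.49 times, which held for 8.4% of all genes. The averaged log2 fold change was 0.36 (SE 0.12, adjusted p = 0.111). With the replicate block it was 0.37 (SE 0.05, adjusted p = 7.506e-05), which passed on the p alone, as 26.4% of all genes did, but not the limit on the fold change. The neighbour Pitx3, which overlaps an exon of Elovl3 on the opposite strand, was at 1.75 CPM on average.

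The number of genes whose stimulated and unstimulated libraries did not overlap gives another view. Over all LNAs this held for 2 of the 5 tested members, Ucp1 and Cidea, and for 1.18% of all genes. In ctrlA cells it held for Ucp1, Cidea and Elovl3 (10.2% of all genes), and with LNA1 and with LNA2 for Ucp1 and Cidea (11.0% and 8.38%).

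Dio2, the deiodinase, had more than 3 counts in only 2 of the 18 libraries. It had 19 counts in all among 230847995: in replicate 2 there were 2 and 0 counts in ctrlA, 4 and 0 with LNA1 and 2 and 2 with LNA2, unstimulated and stimulated in that order. Replicate 3 had 0 and 0, 2 and 1, and 0 and 1 counts, and replicate 4 had 0 and 0, 0 and 4, and 1 and 0. The count was 0 in 9 libraries, 1 to 3 in 7 and 4 in the other 2, with 11 counts in unstimulated and 8 in stimulated libraries. No group stood out, no fold change is given, and a change was not detectable at this depth. The overlapping antisense gene Gm26512 had at most 1 count in a library. Among the other genes of thyroid hormone action, the receptor Thra (65.5 CPM), its partner Rxra (163.1 CPM) and the transporter Slc16a10 (69.4 CPM) were expressed, while the deiodinases Dio1 and Dio3 and the receptor Thrb had means of at most 0.0203 CPM. Of this list of 10 genes 5 were tested and none was called under isoproterenol (median log2 fold change -0.25); the lipogenic target Me1 was at -0.40 with an adjusted p of 0.017, under the fold limit.

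Cox7a1, the muscle and brown fat isoform of subunit VIIa, followed the replicate number and not the stimulation. In ctrlA cells it was at 3.63, 1.23 and 1.06 CPM unstimulated and 4.56, 1.74 and 1.74 CPM stimulated. With LNA1 it was at 4.07, 1.42 and 0.915 CPM unstimulated and 3.55, 1.38 and 1.27 CPM stimulated. With LNA2 it was at 3.63, 1.35 and 1.12 CPM unstimulated and 2.94, 1.65 and 1.23 CPM stimulated. All 6 libraries numbered 2 (2.94 to 4.56 CPM) lay above all 12 others (0.915 to 1.74 CPM), the same libraries that had the higher shares of rRNA and mitochondrial counts. The part of those shares in the level of Cox7a1 was not tested. The averaged isoproterenol log2 fold change was 0.09 (SE 0.39, adjusted p = 0.976), with 6 of 9 pairs higher and all 3 of the ctrlA pairs.

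Cox8b, the corresponding isoform of subunit VIII, had 3 to 27 counts per library. In ctrlA cells it was at 1.19, 1.30 and 0.653 CPM unstimulated and 2.05, 1.09 and 0.715 CPM stimulated. With LNA1 it was at 1.10, 0.266 and 1.12 CPM unstimulated and 0.976, 0.291 and 0.795 CPM stimulated. With LNA2 it was at 0.496, 0.567 and 0.630 CPM unstimulated and 0.759, 0.708 and 0.461 CPM stimulated. The highest value was that of stimulated ctrlA replicate 2, and the states overlapped for every LNA. The averaged isoproterenol log2 fold change was 0.06 (SE 0.31, adjusted p = 0.981), with 5 of 9 pairs higher.

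**Figure D2:**
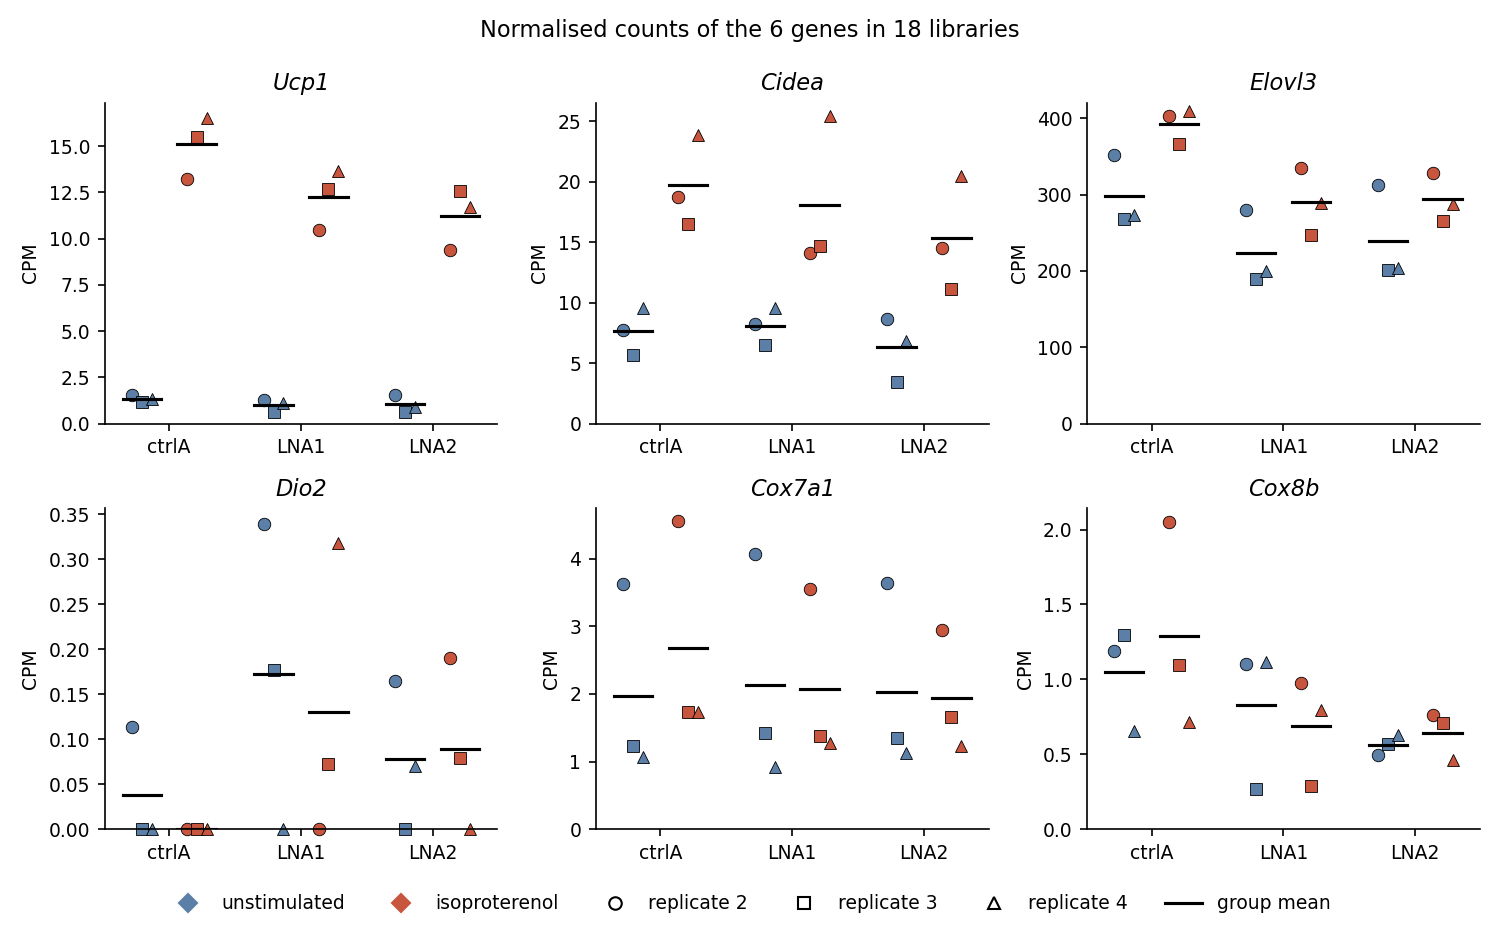
CPM of the 6 genes in each of the 18 libraries by LNA (x axis) and stimulation (colour), with the replicate number as the symbol and the group mean as a bar; each panel has its own scale. The 9 stimulated libraries of Ucp1 and Cidea lie above all unstimulated ones, the group means of Elovl3 are lower with LNA1 and LNA2 than with ctrlA, and replicate 2 of Cox7a1 sits at 2.94 to 4.56 CPM.

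Replicate 2 also gave the smallest responses of the 3 genes that were higher under isoproterenol in every pair. Ucp1 was 8.63, 8.22 and 5.99 times higher in replicate 2 with ctrlA, LNA1 and LNA2, against 13.4, 20.4 and 19.7 times in replicate 3 and 12.7, 12.2 and 12.8 times in replicate 4. For Cidea the ratios were 2.43, 1.71 and 1.68 in replicate 2, 2.93, 2.27 and 3.28 in replicate 3 and 2.50, 2.66 and 2.98 in replicate 4. For Elovl3 they were 1.15, 1.20 and 1.05 in replicate 2, 1.37, 1.31 and 1.32 in replicate 3 and 1.49, 1.44 and 1.42 in replicate 4. Within each LNA, replicate 2 was thus the lowest of the 3 for all of these genes. The 302 genes called as higher under isoproterenol had median log2 differences of 0.92 to 1.10 in replicate 2, 0.95 to 1.12 in replicate 3 and 0.79 to 0.99 in replicate 4, so their median response was not the lowest in replicate 2. The part of the rRNA and mitochondrial shares in the responses of Ucp1, Cidea and Elovl3 was not tested. Without replicate 2 the averaged log2 fold changes of these 3 genes kept their sign, and that of Elovl3 was 0.47 with an adjusted p of 7.423e-04.

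**Figure D3:**
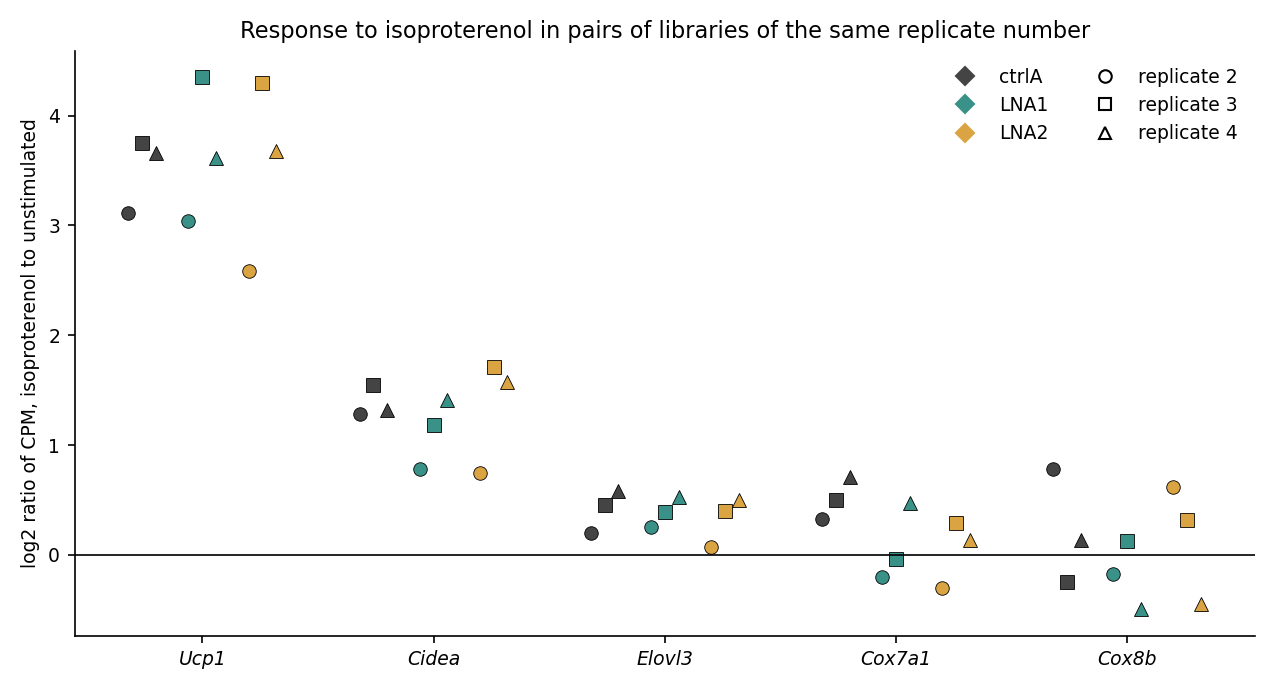
Log2 ratio of CPM, isoproterenol to unstimulated, in each pair of libraries of the same LNA (colour) and replicate number (symbol), for 5 genes; the line marks no difference. All 9 pairs of Ucp1, Cidea and Elovl3 lie above the line and the circles of replicate 2 are the lowest of each LNA, whereas pairs of Cox7a1 and Cox8b lie on both sides.

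Relatives of the 6 genes were compared in the same way. Of 16 paralogues 12 were tested, and 1 rose under isoproterenol (2.02% of all genes rose). The median log2 fold change of the 12 was 0.07. The paralogue that rose was Cideb, a lipid droplet and lipoprotein factor related to Cidea. It went from 2.90 ± 0.80 to 6.79 ± 1.87 CPM (SD, n = 9, log2 fold change 1.25, adjusted p = 9.2e-05). Cidec, the abundant lipid droplet paralogue at 1500 CPM on average, was lower by 0.39 on the log2 scale (adjusted p = 0.0117), short of the fold limit. The uncoupling protein paralogue Ucp2 went from 346.2 ± 69.8 to 531 ± 134 CPM (log2 fold change 0.62, adjusted p = 0.0572), and it rose with the replicate block (adjusted p = 1.372e-06), where 3 paralogues and 7.0% of all genes were called, the third being the elongase Elovl7 (0.73, adjusted p = 0.0356). The elongases Elovl1 (66.2 CPM), Elovl4 (29.4 CPM) and Elovl5 (120.8 CPM) had log2 fold changes of -0.12, 0.11 and -0.23 and did not pass. The 9 genes of the fatty acid elongation cycle, all tested, had no call (3.2% of all genes were called) and a median of -0.12, with 3 values above 0 and 6 below. Of these, Tecr (-0.30, edgeR adjusted p = 0.0124) and Hsd17b12 (-0.34, adjusted p = 0.04955) passed the p but not the fold limit.

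Among 29 further genes of the brown fat programme, 19 were tested, 5 rose and none fell under isoproterenol (2.02% of all genes rose), with a median log2 fold change of 0.24. They were Cited1, a transcriptional coregulator used as a beige and brown fat marker (1.16, adjusted p = 6.1e-04), Gadd45g, a stress and growth arrest factor (0.66, adjusted p = 0.0252), Pdk4, the kinase that restrains pyruvate oxidation (0.65, adjusted p = 0.003), Ppargc1a, the coactivator of mitochondrial biogenesis (0.56, adjusted p = 0.0015), and Gk, glycerol kinase (0.56, adjusted p = 0.0212). Gk was added to the named genes after its values were seen, since the naming rule took the first 4. With the replicate block, a fit that called 7.0% of all genes, 7 rose and 1 fell, the transcription factor Ebf2. The receptor Adrb3 was at 0.663 CPM and did not pass (log2 fold change -0.48, adjusted p = 0.715).

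Of the marker lists, 3 held 1 called gene each under isoproterenol, where 3.2% of all genes were called. Of the 9 markers of mature adipocytes, Adipoq, which encodes the secreted hormone adiponectin, fell (log2 fold change -0.71, adjusted p = 0.0073), the other 8 were not called, and their summed level was 20190 to 31710 CPM in unstimulated and 16720 to 24300 CPM in stimulated libraries. Of 6 preadipocyte markers 4 were tested and Ly6a rose (1.58, adjusted p = 0.0415), with summed levels of 41.2 to 57.0 CPM and 42.7 to 88.6 CPM. The other 3 tested were not called and had values below 0: Pdgfra at -0.03, Pdgfrb at -0.34 and Cd34 at -0.18. Ly6a alone went from a mean of 12.05 to 35.2 CPM, so the higher sum is not shared by the list. Of 5 macrophage markers 2 were tested and Cd68, a lysosomal protein, rose (0.90, adjusted p = 0.0062), with sums of 8.23 to 28.6 CPM and 12.2 to 44.3 CPM, while Ptprc and Adgre1 were at or near 0. The lists for white fat (2 of 5 tested), muscle (2 of 7) and endothelium (1 of 4) had no call. The muscle actin gene Acta1 rose with the replicate block (0.68, adjusted p = 0.0021), a fit that called 7.0% of all genes. The part of these markers in the responses of Ucp1 and Cidea was not tested.

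Neither LNA changed a member by the calling rule. Averaged over stimulation, 0 of the 5 tested members were called for LNA1 against ctrlA, where 0.442% of all genes were, and 0 for LNA2 against ctrlA, where 1.42% were (edgeR). At an unadjusted p under 0.05 there was 1 member for LNA1, Elovl3 (6.01% of all genes), and 2 for LNA2, Elovl3 and Cox8b (10.6% of all genes), and DESeq2 called 0 in both. All 5 fitted values were below 0 for each LNA with the 18 libraries, with medians of -0.35 and -0.37 against -0.02 for all genes. The sign did not hold throughout: Cidea with LNA1 was at 0.07 in replicates 3 and 4 alone, and without ctrlA unstimulated replicate 2 Cox7a1 was at 0.26 with LNA1 and 0.16 with LNA2. Both comparisons use the same ctrlA libraries, so their values stand side by side and are not independent. LNA2 against LNA1 called 0 members and 0.923% of all genes, with no member at an unadjusted p under 0.05.

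Elovl3 did not pass for either LNA, although it was lower than in ctrlA in every pair. It averaged 345.3 ± 61.6 CPM in ctrlA, 256.9 ± 55.9 with LNA1 and 266.3 ± 54.2 with LNA2 (SD, n = 6). Over the 6 pairs of the same stimulation and replicate number the differences from ctrlA were -32.3% to -16.8% for LNA1 and -29.7% to -11.4% for LNA2, and 12.1% of all genes were lower in all 6 pairs in each comparison. The log2 fold change was -0.43 with LNA1 (SE 0.14, adjusted p = 0.393) and -0.37 with LNA2 (SE 0.14, adjusted p = 0.316). With the replicate block it was -0.44 (adjusted p = 9.315e-04) and -0.38 (adjusted p = 8.702e-04), past the p but not the fold limit, as the p alone was met by 7.8% and 20.6% of all genes. Under isoproterenol the ctrlA libraries did not overlap with those of either LNA, while in unstimulated cells they did.

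Ucp1 did not pass for either LNA, with fitted values below 0. Its log2 fold change was -0.35 with LNA1 (SE 0.20, adjusted p = 0.983) and -0.40 with LNA2 (SE 0.20, adjusted p = 0.508), with 6 of 6 and 5 of 6 pairs lower. The stimulated levels were 15.1 ± 1.70 CPM in ctrlA, 12.3 ± 1.63 with LNA1 and 11.2 ± 1.64 with LNA2 (SD, n = 3), and those of LNA2 did not overlap with ctrlA. For Cidea the log2 fold change was -0.02 with LNA1 (95% interval -0.53 to 0.49, adjusted p = 1) and -0.32 with LNA2 (-0.82 to 0.19, adjusted p = 0.796).

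Cox8b had the lowest fitted values of the 5 and the widest errors but for Cox7a1. It averaged 1.17 ± 0.505 CPM in ctrlA, 0.758 ± 0.390 with LNA1 and 0.604 ± 0.117 with LNA2 (SD, n = 6). The log2 fold change was -0.64 with LNA1 (SE 0.37, adjusted p = 1) and -0.95 with LNA2 (SE 0.37, adjusted p = 0.323), and all 6 pairs were lower with LNA2 while 4 of 6 were with LNA1. Cox7a1 was at -0.14 with LNA1 and -0.24 with LNA2 (SE 0.48 for each, adjusted p = 1 and 0.976).

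**Figure D4:**
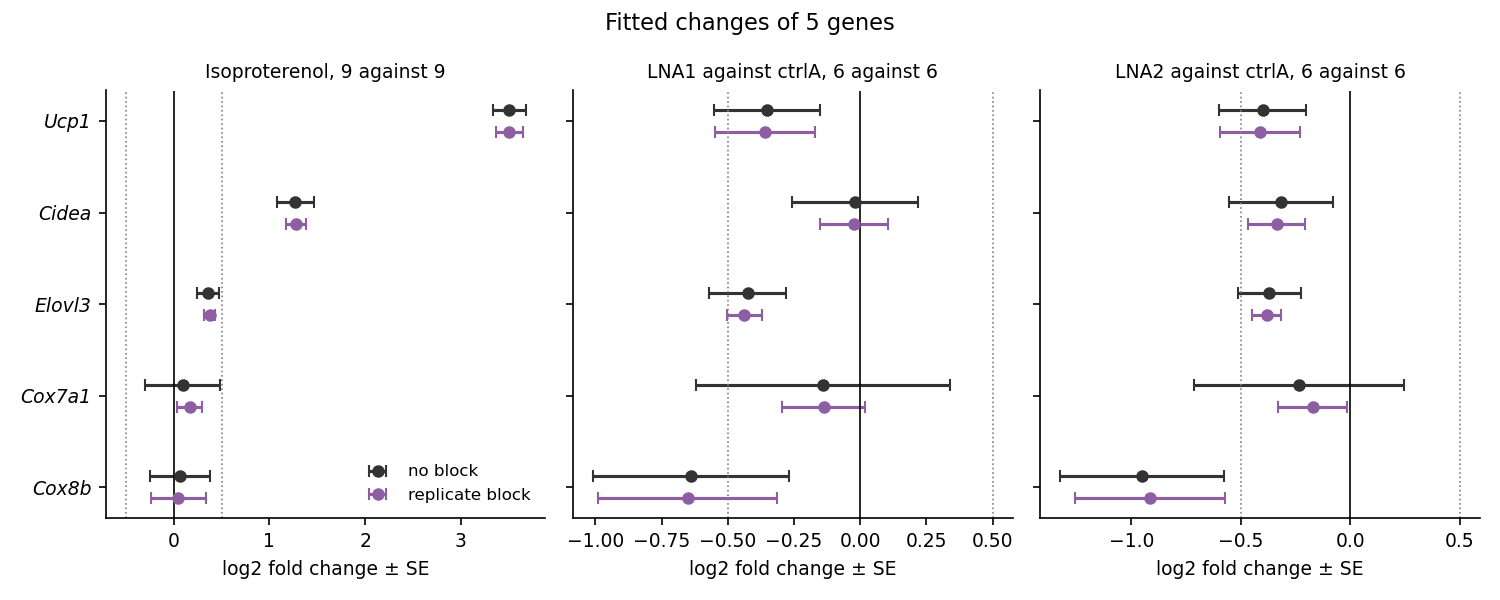
Fitted log2 fold changes with their standard errors for 5 genes, without (black) and with (purple) the replicate number as a block, for isoproterenol (9 against 9 libraries), LNA1 and LNA2 (6 against 6 each); dotted lines mark the fold limit of 0.5 and each panel has its own scale. The block narrows the error of Elovl3 under isoproterenol from 0.12 to 0.05 and leaves its value, 0.37, under the limit.

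Within a single stimulation state the LNAs again gave no call among the members. In unstimulated cells LNA1 called 0.0% of all genes (0 by edgeR, with 427 at an unadjusted p under 0.05) and LNA2 called 0.194%. Under isoproterenol LNA1 called 0.0134% and LNA2 called 0.207%. No member was at an unadjusted p under 0.05 in these 4 comparisons without the replicate block. With the block (edgeR), Elovl3 with LNA1 was at -0.43 unstimulated (adjusted p = 0.0454) and -0.45 stimulated (adjusted p = 0.0173). With LNA2 it was at -0.33 (adjusted p = 0.0537) and -0.43 (adjusted p = 0.0079). All 4 values were under the fold limit. By both limits these fits called 90, 217, 417 and 823 of all genes. Non-overlapping groups were found under isoproterenol for Elovl3 with LNA1 (7.53% of all genes) and for Ucp1 and Elovl3 with LNA2 (8.99%). In unstimulated cells they were found for no member with LNA1 (6.79%) and for Cox8b with LNA2 (8.75%). Under isoproterenol, all 5 tested members were lower than ctrlA in every same-numbered pair with LNA2, and 3 were with LNA1. Without stimulation, 2 were lower and 1 was higher in every pair with each LNA. The share of all genes was not counted for these sets of 3 pairs, so these counts of members have no reference. Over the 6 pairs of both states, 2 of the 5 were lower throughout with each LNA, as 12.1% of all genes were.

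Whether the LNAs altered the response to isoproterenol was tested by the interaction. It was called for no member and for 0.0% of all genes with either LNA by edgeR, with 105 genes at an unadjusted p under 0.05 for LNA1 and 116 for LNA2, none of them a member; DESeq2 called 0 and 2 genes. For Ucp1 the interaction was 0.11 on the log2 scale with LNA1 (95% interval -0.72 to 0.95) and -0.05 with LNA2 (-0.95 to 0.85). For Elovl3 it was -0.02 (-0.63 to 0.60) and -0.10 (-0.71 to 0.52). The widest in this fit, which leaves out the replicate number, were those of Cox7a1, at -0.49 for both LNAs (-2.53 to 1.55 with LNA1). With the replicate block Cox7a1 was at -0.47 with LNA1 and -0.45 with LNA2 (SE 0.31 for each). Elovl3 was then at -0.02 and -0.09 (SE 0.13 for each), and the widest errors were those of Cox8b (SE 0.68 and 0.70). The edgeR fit with the block again called no member and 0 of all genes, and DESeq2 with the block called 8 and 6 genes. The joint test across the 6 groups, with its limit of 0.001 on the adjusted p, called Ucp1 alone (adjusted p = 7.172e-07) and 0.455% of all genes. With the replicate block it called Ucp1, Cidea (adjusted p = 6.625e-06) and Elovl3 (adjusted p = 6.36e-05) and 8.93% of all genes.

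The paralogues, the other brown fat genes, the complex IV subunits, the thyroid hormone genes and the elongation cycle had no call for LNA1 or LNA2 averaged over stimulation, with list medians between -0.16 and 0.02. Only 0.442% (LNA1) and 1.42% (LNA2) of all genes were called, so few or no calls would be usual in lists of this size. With the replicate block 3 of these genes were called for LNA1, namely Irf4 (0.79), Otop1 (0.91) and Cox6a2 (-0.51), and 2 for LNA2, Cideb (0.59) and Cpt1b (-0.52), in fits that called 2.43% and 5.53% of all genes. Among the marker lists, 1 gene passed in both: the preadipocyte marker Pdgfra, the receptor for platelet-derived growth factor A, was at 7.41 ± 0.488 CPM in ctrlA, 13.7 ± 1.97 with LNA1 and 12.1 ± 2.17 with LNA2 (SD, n = 6, log2 fold changes 0.89 and 0.71, adjusted p = 0.0074 and 0.0121). These comparisons called 0.442% and 1.42% of all genes. The 3 other tested preadipocyte markers were not called and differed in sign. Pdgfrb was at -0.22 with LNA1 and 0.20 with LNA2, Cd34 at -0.34 and -0.67, and Ly6a at 0.15 and 0.57. With the block Ly6a (0.66), Csf1r (1.71) and Cd68 (0.88) were also called for LNA2. The summed level of the 6 preadipocyte markers had medians of 42.8, 47.5 and 56.4 CPM in the 3 LNAs, and that of the mature adipocyte markers 24110, 22070 and 20410 CPM. The part of these levels in the values of Elovl3 was not tested.

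Transcripts of the common isoforms of cytochrome c oxidase far exceeded those of Cox7a1 and Cox8b. Per kilobase, Cox7a1 made up 0.998% to 2.12% of Cox7a1 plus Cox7a2 (median 1.55%) and Cox8b 0.0735% to 0.369% of Cox8b plus Cox8a (median 0.190%). The common isoforms Cox7a2 and Cox8a were at 223.7 and 703.5 CPM on average, and the related Cox7a2l, a factor of respiratory supercomplexes, at 214.4 CPM. The share of Cox7a1 was 1.47 ± 0.375% unstimulated and 1.67 ± 0.219% stimulated (SD, n = 9; exact permutation test within LNA, two-sided p = 0.216, adjusted over 6 tests 0.431). That of Cox8b was 0.269 ± 0.0799% in ctrlA and 0.157 ± 0.0339% with LNA2 (SD, n = 6; exact permutation test within stimulation, two-sided p = 0.01, adjusted 0.06). With labels exchanged only within pairs of the same replicate number, the adjusted p was 0.363 for each of these 2 comparisons (unadjusted exact p = 0.121 and 0.0625, where an LNA can reach no less than 0.0312). The 4 other tests gave adjusted p-values of 0.431 and above without the pairing; the smallest p these designs allow is 0.00025 for isoproterenol and 0.005 for an LNA. Of the 14 complex IV subunits considered, 13 were tested and none was called under isoproterenol (median log2 fold change 0.03). With the replicate block, in a fit that called 7.0% of all genes, the muscle isoform Cox6a2, which was at -0.65, fell (adjusted p = 8.286e-04).

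**Figure D5:**
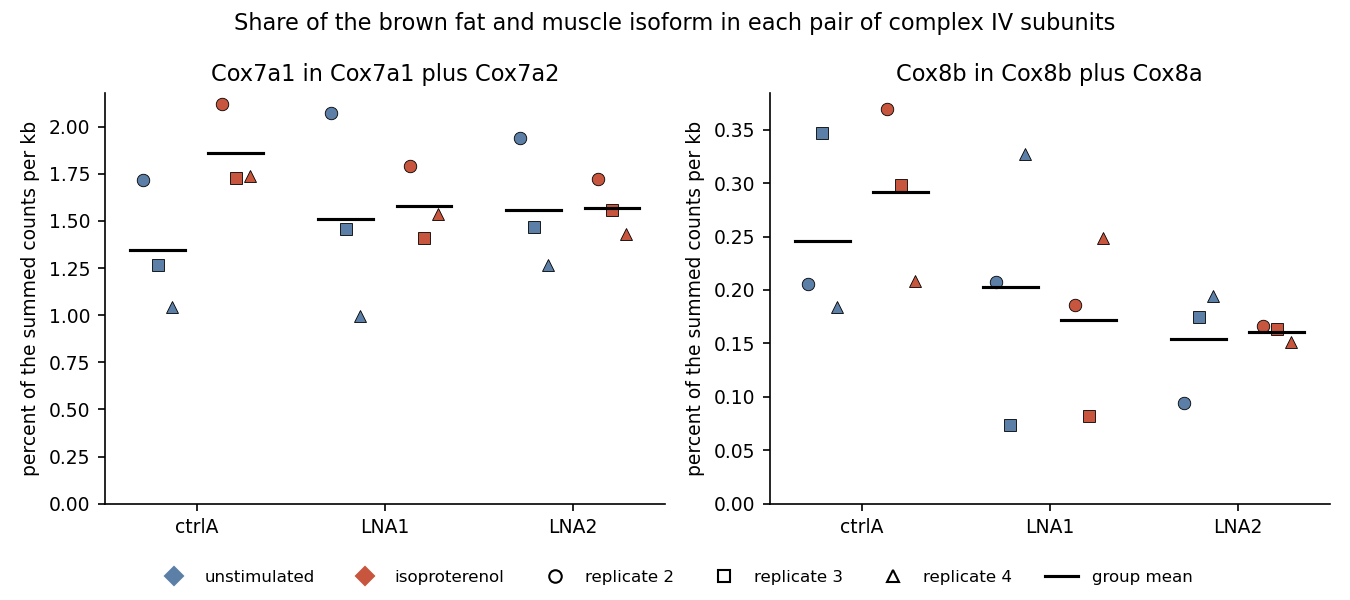
Share of Cox7a1 in Cox7a1 plus Cox7a2 (left) and of Cox8b in Cox8b plus Cox8a (right), in percent of the summed counts per kb, for each of the 18 libraries by LNA, stimulation (colour) and replicate (symbol), with group means as bars. Both shares stay low, at up to 2.12% and 0.369%, and no Cox8b share with LNA2 exceeds 0.194%.

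Across the 18 libraries the log2 CPM of the members were related to differing degrees. Pearson's r was 0.89 for Ucp1 and Cidea, 0.66 for Ucp1 and Elovl3 and 0.64 for Cidea and Elovl3. With replicate means removed, these values became 0.95, 0.75 and 0.73. Cox7a1 had an r of 0.63 with Elovl3, 0.18 with Ucp1 and 0.12 with Cidea, which became 0.67, 0.53 and 0.54 by the second measure. Cox8b had an r of 0.51 with Elovl3 and 0.12 with Ucp1 and with Cidea (0.37, 0.11 and 0.07 by the second measure), and 0.42 with Cox7a1 (0.17). These values describe libraries that share stimulation, LNA and replicate number and carry no p. Among 13170 genes at 1 CPM or more, those most like Ucp1 were Echdc2 (r = 0.976), Slmapos2 (0.975) and Gm29408 (0.965), and those most like Cidea were Gm9973 (0.918), Sdc4 (0.91) and Gm48942 (0.903). Elovl3 was most like Tapt1 (0.916), Faf1 (0.907) and Sinhcaf (0.894), and Cox8b most like Fxyd1 (0.763), Ces1f (0.741) and Tamm41 (0.706). Cox7a1 was most like Atp5e (0.977), Txn1 (0.975) and Gm20498 (0.974). Atp5e, a subunit of ATP synthase, was also higher in replicate 2, at 280.3 to 351.9 CPM against 146.7 to 194.2 CPM, and its r with Cox7a1 was 0.691 once replicate means were removed. By that measure the first genes were Tgfbi (0.987) for Ucp1, Pde4d (0.977) for Cidea, Lipa (0.966) for Elovl3, Zbtb3 (0.794) for Cox7a1 and Chchd1 (0.779) for Cox8b.

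By the GENCODE M21 annotation (GRCm38), all 6 are protein-coding genes. Ucp1 spans positions 83290352 to 83298452 of chromosome 8 on the plus strand with 1636 bases of exon, and Elovl3 positions 46131897 to 46135694 of chromosome 19 on the plus strand with 1975 bases. Cidea lies on chromosome 18 from 67343604 to 67367785 on the plus strand with 1115 bases of exon, and Dio2 on chromosome 12 from 90724552 to 90738438 on the minus strand with 5815 bases. Cox7a1 and Cox8b are on chromosome 7, Cox7a1 from 30184144 to 30186078 on the plus strand with 535 bases and Cox8b from 140898945 to 140900446 on the minus strand with 360 bases. These exon lengths are the ones used for the levels per kilobase.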

How the data were processed

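PolyA RNA libraries were sequenced paired-end, trimmed with cutadapt and quantified with salmon against GENCODE M22 by the authors, who deposited expected counts per gene as whole numbers (the build named in the submitters' processing notes is GRCm38). No rounding was needed. Counts were scaled by TMM and tested with the edgeR 4.0.16 quasi-likelihood test over all 6 groups in R 4.3.3, after filterByExpr (minimum count 10, total 15), with Benjamini-Hochberg adjustment over all 14949 genes. Calls needed an adjusted p under 0.05 and an absolute log2 fold change over 0.5, interactions the p alone and the joint test an adjusted p under 0.001. DESeq2 1.42.0 was an alternative. Exon lengths came from GENCODE M21, which holds 99.53% of the genes. The script was tested on simulated data.

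Same-numbered libraries deviated together (15 of 15 pairs over 0.1 for each number; r from 0.24 to 0.722), so the numbers pair the samples, by the data and not by the labels; the replicate block is given where it changed a call. The members and lists were chosen with earlier results of these data known. Genes named beyond the members were the paralogues at 10 CPM or more or called, up to 4 called genes of a list in each direction, and the 3 genes most like each member. Isoform shares were compared by exact permutation tests. Other genes of a list are named where a sentence gives the list's members or values that were not called.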

Additional observations from a re-analysis of the deposited data

How the results depend on the processing

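Ucp1 and Cidea were called for averaged isoproterenol under every alternative and without any 1 library; leave-one-out fits also left every count of called members as it was. Members called for isoproterenol in ctrlA, 1 in the fit described, were 2 with the replicate block, DESeq2 (with or without the block) or no filter, and 2 in replicates 3 and 4 alone, where Elovl3 passed in place of Cidea (0.51, adjusted p = 0.049). In LNA1 they were 2 with the block and with DESeq2 and the block; in LNA2 they were 2 with the block or either DESeq2 fit and 0 with the groups compared alone. The joint test called 3 with the block, 2 with DESeq2 and 3 with both. With the block and no fold limit, an alternative chosen after seeing Elovl3, the counts were 3 for isoproterenol, averaged and in each LNA, and 1 (Elovl3) for LNA1 and LNA2 averaged, for LNA1 in each state and for LNA2 under isoproterenol. The block changed no other call of a member.

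In replicates 3 and 4 alone, Cidea with LNA1 turned to 0.0653, Cox8b under isoproterenol to -0.16 and its isoform share difference to -0.0246 percentage points. Leaving out 1 library gave -0.185 to 0.0721 for Cidea with LNA1; -0.11 to 0.39, -0.58 to 0.26 and -0.58 to 0.16 for Cox7a1 under isoproterenol, LNA1 and LNA2; and -0.10 to 0.19 for Cox8b under isoproterenol. The share differences ranged from -0.17 to 0.051 (Cox7a1, LNA1), -0.151 to 0.0642 (Cox7a1, LNA2), -0.0128 to 0.0256 (Cox8b, isoproterenol) and -0.128 to -0.0913 (Cox8b, LNA2), the last past its threshold without ctrlA unstimulated replicate 4. The cause was not tested. With 1 library left out, the values with LNA1 were -0.464 to -0.230 for Ucp1 and -0.799 to -0.383 for Cox8b. That of Cidea with LNA2 was -0.446 to -0.165. Counts over all genes, for averaged isoproterenol, LNA1 and LNA2, were 479, 66 and 213, and 461 to 1046, 50 to 364 and 125 to 826 under the other alternatives (3943, 1166 and 3081 with the block and no fold limit); in single LNAs isoproterenol called 73 (14 to 603), 105 (20 to 753) and 59 (0 to 635), and the joint test 68 (65 to 2775). LNA2 against LNA1 called 138 (70 to 615); within a state LNA1 called 0 (0 to 111) unstimulated and 2 (0 to 228) stimulated, LNA2 29 (0 to 417) and 31 (0 to 823), and the interactions 0 (0 to 8 for LNA1, 0 to 6 for LNA2). Without 1 library the counts for averaged isoproterenol, LNA1 and LNA2 were 394 to 477, 32 to 82 and 113 to 262, for isoproterenol in single LNAs 43 to 81, 49 to 107 and 23 to 66, and 34 to 55 for the joint test; LNA1 was lowest without ctrlA unstimulated replicate 3 or LNA1 unstimulated replicate 4, and LNA2 without its unstimulated replicate 4. A fit with the groups compared alone is not separate for averaged isoproterenol and the joint test. The counts of Dio2 (up to 4) and Cox8b (3 to 27) limit what depth can show.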
